A study of Mus musculus with 2 samples.

Results

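The genes described here encode ATP-dependent chromatin remodellers and histone deacetylases, with the subunits that share their complexes. They were taken from the deposited expression table by symbol, as every gene named Smarc, Ino80, or Chd, Arid, Hdac, Sirt, Mbd or Mta followed by a digit. The rule found 66 of the 19559 genes listed, and 47 of the 66 reached an RPKM of 1 in the ICM, the whole blastocyst or both. RPKM is the read count of a gene divided by the gene's length in kilobases and by the size of the library. There were 2 libraries, both from E3.75 mouse embryos (E marks embryonic days) whose mothers were B6CBAF1 and whose fathers were CD-1. In the ICM library the inner cell mass had been isolated by immunosurgery, a procedure in which antibody and complement destroy the outer cells. The other library was made from whole blastocysts, which hold an ICM together with the trophectoderm, the outer epithelium. How many embryos each library pools is not stated in the labels, which also name no treatment and no mutant allele.

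Remodellers use the energy of ATP hydrolysis to slide, evict or exchange nucleosomes. The SMARC family supplies the ATPases and core subunits of the BAF complex (the mammalian SWI/SNF complex) and the ISWI ATPases, the CHD family supplies single ATPases and the motor of the NuRD complex, and INO80 is a further ATPase with its own subunits. Histone deacetylases remove acetyl groups from histone tails, and in NuRD the deacetylases HDAC1 and HDAC2 are joined to a CHD motor by MTA and MBD proteins. In mouse embryonic stem cells, which derive from the ICM, the BAF complex is known for a particular choice of paralogs, with SMARCA4 rather than SMARCA2, SMARCC1 rather than SMARCC2 and ARID1A rather than ARID1B.

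Listed genes took 4125479 reads in the ICM library and 9271198 in the whole-blastocyst library. Because each group is a single library, without replicates, no test of ICM against whole blastocyst was made. Each ratio is given instead with an exact 95% interval that covers counting error only, and PCR-amplified reads are not independent molecules. Differences are log2((ICM RPKM + 1)/(whole-blastocyst RPKM + 1)), a scale that understates the change of low genes. Among the 3013 genes whose RPKM reached 5 in the ICM and in the whole blastocyst, the median was -0.66. Differences are therefore also given centred, that is, relative to that shift. For genes well above the pseudocount this is close to multiplying the ratio by 1.58. Low genes depart from it, because the centred differences and counts keep the pseudocount. Arid1b, for example, has a centred difference of -0.70, within 2-fold, while its ratio multiplied by 1.58 is 0.256. The lineage markers were checked first. The summed RPKM of 5 epiblast markers was 225 in the ICM library and 38.1 in the whole-blastocyst library, that of 4 primitive endoderm markers 98.3 and 33.7, and that of 6 trophectoderm markers 47.8 and 1626. Of the epiblast markers 4 of 5 were past 2-fold on the high side, and the fifth, Sox2, had a ratio of 1.46 (1.24 to 1.72). Of the primitive endoderm markers 3 of 4 were, with Pdgfra alone at 68.1 of the 98.3. Their ratios were 63.3 (28.8 to 174) for Gata4, 29.8 (26.7 to 33.3) for Pdgfra and 14.2 (8.04 to 27.2) for Sox17. Gata4 rested on 6 reads in the whole blastocyst and Sox17 on 13. Gata6 went the other way as deposited, at an RPKM of 22.7 in the ICM and 31.2 in the whole blastocyst. Its ratio was 0.727 (0.674 to 0.783) and its centred difference 0.21. All 6 trophectoderm markers were at least 2-fold lower in the ICM library and none was at 0. Among 5 markers of other cells, Hbb-b1 was at 0 in both libraries, Ptprc had 1 read in the ICM and 3 in the whole blastocyst, Cyp11a1 had 0 and 324, Cyp19a1 91 and 0, and Vim 289 and 7. The part of these markers' cells in the results below was not tested, and fewer cells of a type and less RNA per cell cannot be told apart in such samples. Whether the libraries differ in more than the outer cells was also not tested.

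On this scale with the pseudocount, 31 of the 47 genes lay within 2-fold, 4 were higher in the ICM library by 2-fold or more and 12 were lower by as much. That is 8.51% higher and 25.5% lower, where 8.96% and 44.0% of all 8981 genes with an RPKM of 1 or more were. After centring, 6 were higher and 4 were lower, or 12.8% and 8.51%, beside 16.9% and 20.5% of all genes. Above the centre lay 27 of the 47, or 57.4%, beside 43.3% of all genes. Among the 27, Arid4b, Hdac3, Ino80 and Ino80d lay below the centre by the ratio without the pseudocount. The median difference was -0.52 for the 47 genes and -0.84 for all genes, which is 0.13 and -0.19 after centring. The genes at least 2-fold higher were Smarcc2, Smarcd1, Chd8 and Chd1l. Of the 12 lower genes, Arid3a, Mbd1, Mbd2 and Mta3 were also at least 2-fold lower after centring. Among the 12, Arid3a, Mta3, Arid1b, Arid3b, Hdac4 and Sirt3 passed the filter through the whole blastocyst alone, so their direction is built into the filter. The 4 higher genes and Arid3a, Mbd1, Mbd2 and Mta3 were past 2-fold in the same direction under the deposited RPKM and 3 other scalings of the libraries. Those scalings were TPM, scaling to listed gene reads and quantile normalization. That is 8.51% of the 47 in each direction, beside 8.96% higher and 20.9% lower of all genes. The 3 other scalings moved the median of all genes upward, and all 805 genes at least 2-fold higher as deposited stayed so. For the 4 higher genes this is therefore no added support. Of all 47, 12 were above 0 and 16 below 0 in every scaling that gave a value, and the sign of the other 19 changed with the scaling. The first 2 counts are 25.5% and 34.0% of the 47, beside 23.4% above 0 and 51.9% below 0 of all genes. As deposited, 12 of the 47 were already above 0.

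**Figure D1:**
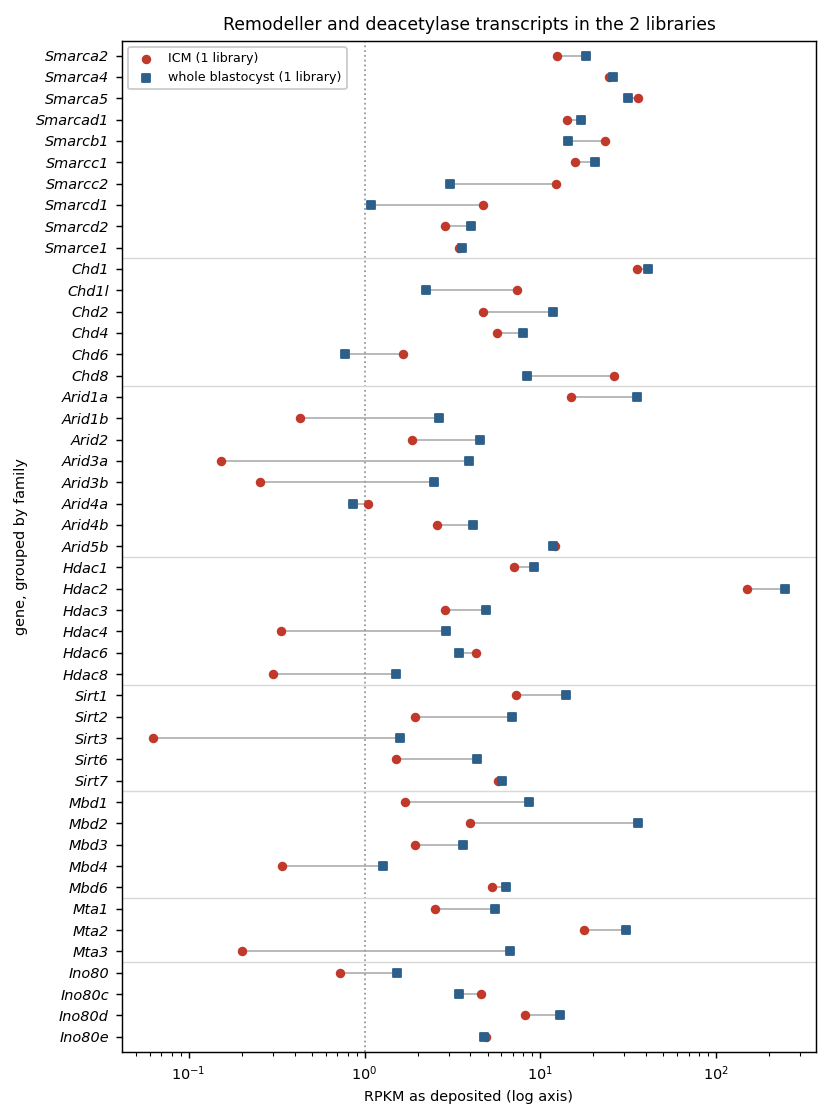
RPKM as deposited, on a log axis, of the 47 genes that reached an RPKM of 1 (dotted line) in either library, with circles for the ICM library and squares for the whole-blastocyst library, 1 library each. The widest gaps with the ICM on the right are those of Smarcc2 and Smarcd1, and Arid3a, Mta3 and Sirt3 have wide gaps with the ICM on the left.

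The upstream sequences are shown for the 4 genes with the largest differences toward the ICM. They are the 250 bases before the annotated start in RefSeq's table for assembly GRCm38.p6, which is not the build of the expression files, and capitals mark a GC box, the letters GGGCGG on either strand.
Smarcc2 (chr10:128458986-128459235, plus strand): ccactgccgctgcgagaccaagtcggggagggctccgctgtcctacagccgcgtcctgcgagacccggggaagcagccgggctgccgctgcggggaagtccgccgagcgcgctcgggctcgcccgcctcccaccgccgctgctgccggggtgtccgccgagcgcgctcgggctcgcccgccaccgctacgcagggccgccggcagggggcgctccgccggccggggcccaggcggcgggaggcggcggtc
Smarcd1 (chr15:99702037-99702286, plus strand): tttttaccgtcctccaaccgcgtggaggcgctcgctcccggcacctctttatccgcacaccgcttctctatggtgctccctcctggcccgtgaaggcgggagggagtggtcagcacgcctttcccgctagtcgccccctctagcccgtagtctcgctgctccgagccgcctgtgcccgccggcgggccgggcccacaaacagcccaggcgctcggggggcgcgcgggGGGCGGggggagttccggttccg
Chd8 (chr14:52257761-52258010, minus strand): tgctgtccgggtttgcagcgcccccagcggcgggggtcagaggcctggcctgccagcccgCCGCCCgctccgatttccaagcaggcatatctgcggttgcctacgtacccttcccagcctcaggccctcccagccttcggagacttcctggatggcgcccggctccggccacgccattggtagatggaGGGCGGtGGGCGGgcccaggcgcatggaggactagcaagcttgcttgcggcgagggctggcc
Chd1l (chr3:97610191-97610440, minus strand): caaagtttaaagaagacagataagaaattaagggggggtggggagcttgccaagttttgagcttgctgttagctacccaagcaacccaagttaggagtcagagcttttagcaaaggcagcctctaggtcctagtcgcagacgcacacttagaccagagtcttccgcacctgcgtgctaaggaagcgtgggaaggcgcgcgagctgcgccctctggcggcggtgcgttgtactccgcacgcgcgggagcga

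The Chd8 window held 3 GC boxes and the Smarcd1 window 1, and the windows of Smarcc2 and Chd1l held none. On both strands, the letters CCAAT were found once in the Chd8 window and in none of the other windows shown, and neither TATAAA nor the ETS core CCGGAAG was found in any of the 4. The windows held 40 CpG dinucleotides for Smarcc2, 29 for Smarcd1, 20 for Chd8 and 17 for Chd1l. The median was 21 over 42 windows of the 34 genes that the table covers, of the 47, and 6 over all 32851 windows of this length, which include noncoding and predicted genes. A GC box was present in 73.8% of the 42 windows and in 32.7% of all windows. For CCAAT the shares were 35.7% and 33.9%, for TATAAA 9.52% and 12.4%, and for CCGGAAG 16.7% and 6.91%. No overlap between the 4 motifs was removed. These are matches of letters and not sites of binding.

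The BAF complex uses 1 of 2 ATPases, BRG1 (gene Smarca4) or BRM (Smarca2). Smarca4 had an RPKM of 24.6 in the ICM (402 reads) and 26.0 in the whole blastocyst (504 reads), a ratio of 0.947 (0.828 to 1.08), and a centred difference of 0.58. Smarca2 had 12.4 in the ICM and 18.1 in the whole blastocyst and was 1.45-fold lower (1.29 to 1.63), with a centred difference of 0.15. Both were below 0 as deposited and above 0 in the other scalings. The balance of Smarca4 over Smarca2, which does not depend on the scaling or on gene length, was 1.38-fold higher in the ICM (1.15 to 1.64). Which of them was more abundant depended on the length used. By RPKM the level of Smarca4 was 1.98 times that of Smarca2 in the ICM and 1.44 times in the whole blastocyst, and by reads per kilobase of the longest coding transcript it was 0.803 and 0.584 times.

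The core subunits held the largest shifts of the SMARC family. Smarcc2, which encodes the scaffold subunit BAF170, had an RPKM of 12.2 in the ICM (591 reads) and 3.08 in the whole blastocyst (177 reads), a ratio of 3.96 (3.35 to 4.72). Its paralog Smarcc1, which encodes BAF155, had 15.8 in the ICM (1410 reads) and 20.3 in the whole blastocyst (2156 reads) and was 1.29-fold lower (1.20 to 1.38). Smarcc1 was the more abundant of the pair in both libraries, at 1.29 times the RPKM of Smarcc2 in the ICM and 6.60 times in the whole blastocyst, and by reads per kilobase of coding transcript at 1.89 and 9.63 times. In the ICM, the balance of Smarcc2 over Smarcc1 was 5.11-fold higher (4.25 to 6.15).

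The SMARCD proteins (BAF60) connect the complex to transcription factors, and their paralogs were also unequal. Smarcd1 had an RPKM of 4.70 in the ICM (289 reads) and 1.08 in the whole blastocyst (79 reads), a ratio of 4.34 (3.37 to 5.64). Smarcd2 had 2.87 in the ICM (103 reads) and 4.03 in the whole blastocyst (172 reads) and was 1.41-fold lower (1.10 to 1.81). Smarcd1 was the more abundant of the pair in the ICM, at 1.64 times the RPKM of Smarcd2, and the less abundant in the whole blastocyst, at 0.268 times. The balance of Smarcd1 over Smarcd2 was 6.11-fold higher in the ICM (4.25 to 8.79). In the annotation used for lengths (GRCm38), 7.13% of the exon bases of Smarcd1 are shared with Gm17349 and 5.56% with Gm34939, both on the opposite strand. The labels do not say whether strand was used in counting. The third paralog, Smarcd3, had 0 reads in the ICM and 2 in the whole blastocyst.

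Smarcb1, which encodes the core subunit SNF5, had an RPKM of 23.3 in the ICM (276 reads) and 14.3 in the whole blastocyst (202 reads). Its ratio was 1.62 (1.35 to 1.95) and its centred difference 1.32. Smarce1, which encodes BAF57, had 3.45 in the ICM and 3.58 in the whole blastocyst, a ratio of 0.965 (0.779 to 1.19). Smarce1, Smarca5 and Hdac1 have annotated pseudogenes, and how reads with several matching places were counted is not stated in the labels, so their values are uncertain. All 6 measured core and accessory subunits lay above the centre, where 43.3% of all genes did, with a median of 0.97 after centring (0.31 as deposited).

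The ARID subunits give BAF complexes their identity: ARID1A and ARID1B mark canonical BAF and ARID2 marks PBAF. They lay below the centre, on the other side from the core subunits, where most genes lay too, as 43.3% of all genes were above it. Arid1a had an RPKM of 14.8 in the ICM (1714 reads) and 35.3 in the whole blastocyst (4841 reads) and was 2.38-fold lower (2.25 to 2.52). Arid1b had 0.432 in the ICM (103 reads) and 2.66 in the whole blastocyst (754 reads) and was 6.17-fold lower (5.01 to 7.65). Arid2 had 1.86 in the ICM and 4.52 in the whole blastocyst, 2.43-fold lower (2.10 to 2.81), a difference of -0.95 on the scale with the pseudocount. All 3 were below 0 in every scaling, as were 51.9% of all genes, and the centred median of the 3 was -0.54. The balance of Arid1a over Arid1b was 2.59-fold higher in the ICM (2.09 to 3.24). Of the 12 genes taken here as BAF subunits, 11 were measured, and 8 of these lay above the centre, beside 27 of the 47 and 43.3% of all genes.

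**Figure D2:**
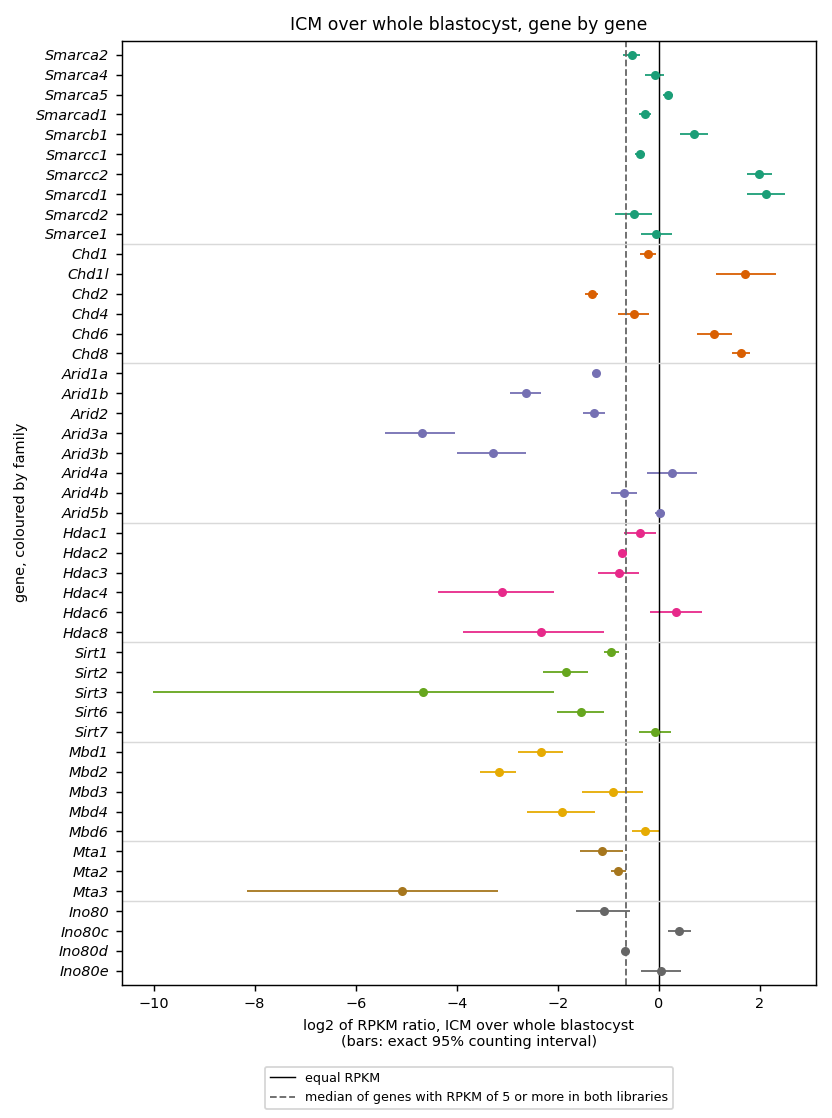
Ratio of ICM to whole-blastocyst RPKM of the same 47 genes on a log2 axis, without a pseudocount, with exact 95% counting intervals and 1 library per group. The solid line marks equal RPKM and the dashed line the shift of -0.66 of the whole table, and Smarcc2, Smarcd1, Chd1l and Chd8 stand to the right of both lines.

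Outside BAF, the SMARC family contains the ISWI ATPases and distant relatives. Smarca5, the ISWI ATPase SNF2H, was the second most abundant of all 66 genes in the ICM by RPKM. It had 36.0 in the ICM (1617 reads) and 31.6 in the whole blastocyst (1683 reads), a ratio of 1.14 (1.06 to 1.22) and a centred difference of 0.84. No read of Smarca1, its paralog, was found in either library. Smarcad1 had 14.2 in the ICM and 17.1 in the whole blastocyst, a ratio 1.20-fold lower (1.10 to 1.31) as deposited and a centred difference of 0.41. Smarcal1, an annealing helicase that acts at stalled replication forks, stayed under an RPKM of 1 in both libraries, at 0.910 and 0.347, with 137 reads in the ICM and 62 in the whole blastocyst. It was 2.62-fold higher (1.93 to 3.60) and is in none of the counts above. The 10 measured SMARC genes had a centred median of 0.60, and all 10 lay above the centre, where 43.3% of all genes did. The median of the same 10 was -0.06 as deposited and 0.88 in TPM, 0.77 scaled to listed gene reads and 0.74 after quantile normalization.

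The CHD family also held genes on the high side. Chd8, an ATPase that binds beta-catenin and restrains Wnt targets, had an RPKM of 26.1 in the ICM (989 reads) and 8.43 in the whole blastocyst (380 reads), a ratio of 3.09 (2.74 to 3.49). It shares 5.77% of its exon bases with an antisense gene. Chd1l, known as ALC1, a remodeller activated by poly(ADP-ribose), had 7.31 in the ICM (94 reads) and 2.23 in the whole blastocyst (34 reads), a ratio of 3.28 (2.20 to 5.01). Chd6 was low in both, at 1.66 in the ICM (202 reads) and 0.775 in the whole blastocyst (112 reads), and its ratio was 2.14 (1.69 to 2.72) with a centred difference of 1.24.

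Chd1, which is needed for the open chromatin of mouse embryonic stem cells, was abundant in both libraries. Its RPKM was 35.3 in the ICM (517 reads) and 40.9 in the whole blastocyst (711 reads), 1.16-fold lower (1.03 to 1.30), with a centred difference of 0.45. Chd2, its paralog, had 4.71 in the ICM (598 reads) and 11.8 in the whole blastocyst (1782 reads), 2.51-fold lower (2.29 to 2.76), and it shares 18.4% of its exon bases with a transcript on the same strand. The balance of Chd1 over Chd2 was 2.17-fold higher in the ICM (1.87 to 2.51). By RPKM the level of Chd1 was 7.50 times that of Chd2 in the ICM and 3.46 times in the whole blastocyst, but by reads per kilobase of coding transcript 0.992 and 0.458 times, so their order rests on the length used. The 6 measured CHD genes had a median of 0.19 as deposited and 0.85 after centring. This median was above 0 in all 4 scalings, of which the 3 others moved the median of all genes upward from the deposited one. The CHD median was -0.21 with the filter raised to an RPKM of 5 and -0.26 without the filter on low values. Chd3, Chd5, Chd7 and Chd9 stayed under an RPKM of 1 in both libraries. Chd9 had 3 reads in the ICM and 91 in the whole blastocyst, 25.6-fold lower (8.47 to 126).

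In NuRD, the CHD4 motor and the HDAC1 and HDAC2 enzymes changed little relative to the shift, while Mbd2 and Mta3 were far lower. Chd4 had an RPKM of 5.65 in the ICM (146 reads) and 7.96 in the whole blastocyst (244 reads), 1.41-fold lower (1.14 to 1.74), with a centred difference of 0.23. Chd3, the alternative motor, had 2 reads in the ICM and 38 in the whole blastocyst, and the balance of Chd4 over Chd3 was 11.4-fold higher in the ICM, with a wide interval (2.85 to 98.3).

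Hdac2 had the highest level of all 66 genes in both libraries, by RPKM and by reads per kilobase of coding transcript. Its RPKM was 148 in the ICM (2021 reads) and 245 in the whole blastocyst (3960 reads), 1.65-fold lower (1.56 to 1.74), a centred difference of -0.06. Hdac1 had 7.09 in the ICM (143 reads) and 9.15 in the whole blastocyst (219 reads), 1.29-fold lower (1.04 to 1.60), a centred difference of 0.33. The balance of Hdac1 over Hdac2 was 1.28-fold higher in the ICM (1.02 to 1.60), an interval that comes close to 1, and the pseudogene of Hdac1 leaves its counts uncertain. Hdac2 took 90.7% of the summed RPKM of the 11 HDAC genes in the ICM and 91.6% in the whole blastocyst, or 82.6% and 83.9% by reads per kilobase of coding transcript.

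The MBD proteins that enter NuRD are exclusive of each other: MBD2 binds methylated CpG, and mammalian MBD3 has lost most of that affinity. Mbd2 had an RPKM of 3.95 in the ICM (70 reads) and 35.6 in the whole blastocyst (749 reads), 9.01-fold lower (7.05 to 11.7), and was the third most abundant of all 66 genes in the whole blastocyst by RPKM. Mbd3 had 1.93 in the ICM (35 reads) and 3.63 in the whole blastocyst (78 reads), 1.88-fold lower (1.24 to 2.88), a centred difference of 0.00. The balance of Mbd3 over Mbd2 was 4.80-fold higher in the ICM (2.90 to 7.83). Mbd2 was still the more abundant of the pair in the ICM, with Mbd3 at 0.490 times its RPKM, against 0.102 times in the whole blastocyst. Mbd2 took 29.9% of the summed RPKM of the MBD genes in the ICM and 64.2% in the whole blastocyst, where it was first, and in the ICM Mbd6 was first with 40.0%.

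The MTA proteins are the scaffold of NuRD on which the deacetylases sit. Mta2 had an RPKM of 17.6 in the ICM (541 reads) and 30.7 in the whole blastocyst (1119 reads), 1.74-fold lower (1.57 to 1.93), a centred difference of -0.11. Mta1 had 2.53 in the ICM (66 reads) and 5.52 in the whole blastocyst (171 reads), 2.18-fold lower (1.63 to 2.95). Mta3 had 0.20 in the ICM (2 reads) and 6.73 in the whole blastocyst (80 reads), 33.7-fold lower with a wide interval (9.03 to 283). The balance of Mta2 over Mta3 was 19.3-fold higher in the ICM (5.14 to 163), while the interval of Mta1 over Mta2 held 1, at 0.798 (0.581 to 1.09). Of the 8 measured genes of the 10 taken here as NuRD subunits, 2 were above the centre, beside 43.3% of all genes, and the centred median was -0.09.

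**Figure D3:**
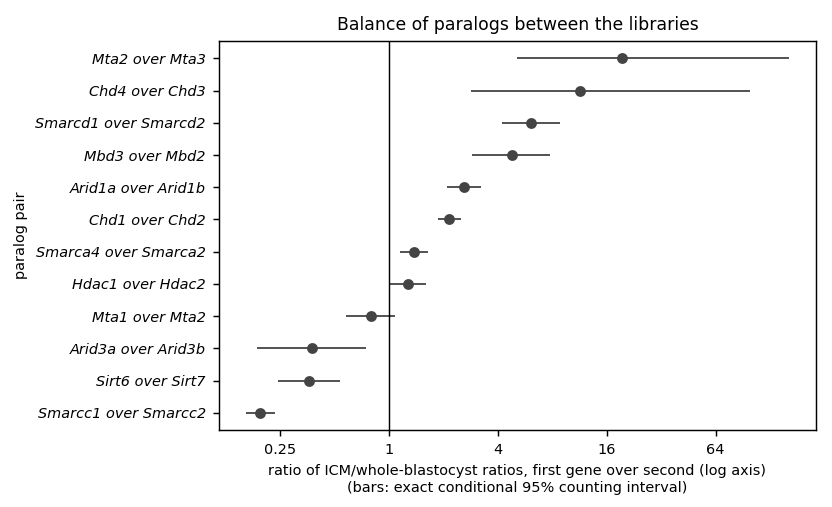
Balance of 12 paralog pairs, as the ICM to whole-blastocyst ratio of the first gene over that of the second, on a log axis with exact conditional 95% counting intervals and 1 library per group. Mta2 over Mta3 is the highest, Smarcc1 over Smarcc2 the lowest at 0.196, and the interval of Mta1 over Mta2 holds 1.

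Of the other deacetylases, Hdac3, the enzyme of the NCoR corepressor, had an RPKM of 2.85 in the ICM (77 reads) and 4.93 in the whole blastocyst (158 reads), 1.73-fold lower (1.31 to 2.30), a centred difference of 0.04. Hdac8 rested on 6 reads in the ICM and 36 in the whole blastocyst, 5.05-fold lower (2.11 to 14.7). Hdac6, the cytoplasmic tubulin deacetylase, had 4.32 in the ICM (68 reads) and 3.43 in the whole blastocyst (64 reads). Its interval held 1 as deposited (0.883 to 1.80), and its centred difference was 0.92. The difference of Hdac6 was 1.25 in TPM, 1.05 scaled to listed gene reads and 1.03 after quantile normalization. Hdac4 was the only class IIa enzyme with an RPKM of 1 or more. It had 0.334 in the ICM (8 reads) and 2.89 in the whole blastocyst (82 reads), 8.64-fold lower (4.18 to 20.7), and 22.4% of its exon bases are shared with a noncoding gene on the opposite strand. Hdac5 had 0 reads in the ICM and 1 in the whole blastocyst and Hdac7 had 11 and 16. Hdac9, Hdac10 and Hdac11 had no read in either library. The 6 measured HDAC genes had a median of -0.67 as deposited and -0.01 after centring. That median was 0.20 in TPM, 0.15 scaled to listed gene reads and 0.23 after quantile normalization.

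The sirtuins use NAD to remove acyl groups. Of the 5 measured, none was at least 2-fold higher and 3 were at least 2-fold lower, beside 8.96% and 44.0% of all genes. Sirt1, the nuclear enzyme, had an RPKM of 7.25 in the ICM (538 reads) and 13.9 in the whole blastocyst (1225 reads), 1.92-fold lower (1.73 to 2.13), a centred difference of -0.20. Sirt2, which is mainly cytoplasmic, had 1.94 in the ICM (55 reads) and 6.92 in the whole blastocyst (233 reads), 3.57-fold lower (2.65 to 4.88). The chromatin-bound Sirt6 and the nucleolar Sirt7 were unequal. Sirt6 had 1.51 in the ICM (51 reads) and 4.36 in the whole blastocyst (175 reads), 2.89-fold lower (2.11 to 4.03). Sirt7 had 5.73 in the ICM (147 reads) and 6.04 in the whole blastocyst (184 reads). Its interval held 1 as deposited (0.758 to 1.18), and its centred difference was 0.59. The balance of Sirt6 over Sirt7 in the ICM was 0.365 of that in the whole blastocyst (0.244 to 0.541). Among the mitochondrial sirtuins, Sirt3 had 1 read in the ICM and 30 in the whole blastocyst, 25.3-fold lower with a wide interval (4.20 to 1031). It shares 6.998% of its exon bases with Ric8a and 5.73% with Psmd13, both on the opposite strand. Sirt5 stayed under an RPKM of 1 with 11 reads in the ICM and 8 in the whole blastocyst. Sirt4, whose symbol also fits the rule, is not among the genes listed by the authors. The median of the 5 measured sirtuins was -1.10 as deposited and -0.44 after centring, and it was below 0 in all 4 scalings. Over the same 5 genes it was -0.54 in TPM, -0.48 scaled to listed gene reads and -0.37 after quantile normalization. For the 8981 genes the medians were -0.11, -0.13 and -0.08, also below 0. Sirt3 passed the filter through the whole blastocyst alone.

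Mbd1, Mbd4, Mbd6 and the remaining ARID genes are outside the genes taken here as BAF or NuRD subunits. Mbd1, which binds methylated CpG, had an RPKM of 1.70 in the ICM (52 reads) and 8.56 in the whole blastocyst (310 reads), 5.02-fold lower (3.73 to 6.87). Mbd4, a DNA repair glycosylase, had 24 reads in the ICM and 107 in the whole blastocyst, 3.76-fold lower (2.40 to 6.12). Mbd6 had 5.30 in the ICM (191 reads) and 6.35 in the whole blastocyst (272 reads). Its interval held 1 as deposited (0.689 to 1.01), and its centred difference was 0.43. The median of the 5 measured MBD genes was -0.76 as deposited and -0.11 after centring, and that of the 3 MTA genes was -0.89 and -0.23.

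Arid3a, a DNA-binding protein with a role in mouse trophectoderm, had 0.153 in the ICM (19 reads) and 3.94 in the whole blastocyst (581 reads), 25.8-fold lower (16.3 to 43.1). Its paralog Arid3b had 0.254 in the ICM (21 reads) and 2.47 in the whole blastocyst (242 reads), 9.71-fold lower (6.21 to 16.0). In the ICM the balance of Arid3a over Arid3b was 0.377 of that in the whole blastocyst (0.188 to 0.752). Arid5b, a partner of the demethylase PHF2, had 12.1 in the ICM (1409 reads) and 11.9 in the whole blastocyst (1642 reads). Its interval held 1 as deposited (0.948 to 1.09), and its centred difference was 0.68. Arid4a and Arid4b, subunits of the Sin3 deacetylase complex, had centred differences of 0.79 and 0.13. Arid5a had 0 reads in the ICM and 11 in the whole blastocyst, and Arid3c had 5 and 0. The 8 measured ARID genes had a median of -1.07 as deposited and -0.41 after centring, and it was below 0 in all 4 scalings. Over the same 8 genes it was -0.30 in each of the other scalings. The median of the 8981 genes was also below 0 in all 4, at -0.84 as deposited and -0.11 in TPM. It was -0.13 scaled to listed gene reads and -0.08 after quantile normalization. Arid1b, Arid3a and Arid3b passed the filter through the whole blastocyst alone.

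The INO80 complex exchanges and spaces nucleosomes at promoters and at sites of DNA damage. On the scale with the pseudocount, its 4 measured genes all lay above the centre, where 43.3% of all genes did. On that scale they also lay within 2-fold as deposited and after centring, where 47.1% and 62.7% of all genes did. Without the pseudocount, the ratio relative to the shift was 0.742 for Ino80 and 0.993 for Ino80d, below the centre. It was 2.09 for Ino80c and 1.62 for Ino80e, above the centre. The ATPase gene Ino80 had an RPKM of 0.720 in the ICM (42 reads) and 1.53 in the whole blastocyst (106 reads), 2.13-fold lower without the pseudocount (1.47 to 3.12). Ino80d had 8.13 in the ICM (3499 reads) and 12.9 in the whole blastocyst (6602 reads), 1.59-fold lower (1.53 to 1.66), a centred difference of 0.05. Ino80c had 4.57 in the ICM (329 reads) and 3.45 in the whole blastocyst (295 reads), 1.32-fold higher (1.13 to 1.55). Ino80e had 4.92 in the ICM (104 reads) and 4.78 in the whole blastocyst (120 reads). It shares 14.4% of its exon bases with Doc2a and 1.96% with Hirip3, both on the opposite strand. Ino80b had 1 read in the ICM and 0 in the whole blastocyst. The family median was -0.26 as deposited and above 0 after centring (0.40) and in TPM (0.63), scaled to listed gene reads (0.54) and after quantile normalization (0.51).

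**Figure D4:**
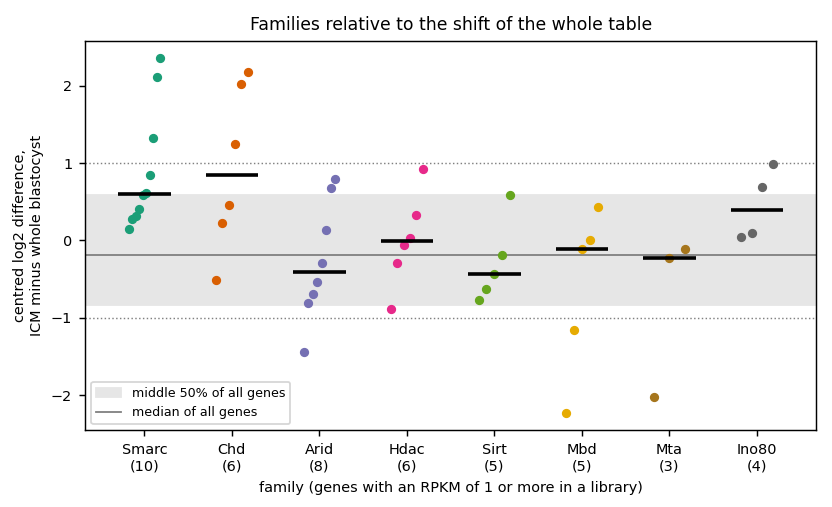
Centred log2 differences, ICM minus whole blastocyst, of the 47 genes by family (points), with family medians (black bars), the median and middle 50% of all 8981 genes (grey line and band, -0.84 to 0.59) and 2-fold limits (dotted lines). All 10 SMARC genes lie above 0, and the MBD and MTA families each hold a gene near -2.

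Other subunits of the same complexes, listed by name, gave the following values. Of 9 measured BAF and PBAF subunits outside the SMARC and ARID families, none was at least 2-fold higher and 3 were at least 2-fold lower (2 and 2 after centring), with a median of -0.87. Ss18, a BAF subunit, had an RPKM of 16.4 in the ICM and 56.4 in the whole blastocyst, 3.43-fold lower (3.21 to 3.67). Brd7, a bromodomain subunit of PBAF, was 3.98-fold lower (2.87 to 5.65). The third lower gene was Dpf2, at 2.18 in the ICM and 5.77 in the whole blastocyst. Of 4 measured NuRD subunits, 1 was lower, the histone chaperone gene Rbbp7, at 2.70-fold (2.49 to 2.92). Rbbp4 and Gatad2a had 2.15-fold (1.96 to 2.36) and 1.91-fold (1.80 to 2.03) lower RPKM, and the median of the 4 was -0.93.

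The corepressors that carry HDAC1, HDAC2 and HDAC3 outside NuRD held the farthest values of these lists. Of 15 measured Sin3, CoREST and NCoR genes, 2 were past 2-fold on the high side and 5 on the low side (4 and 3 after centring), with a median of -0.64. Sin3a, the scaffold of the Sin3 complex, had 0.994 in the ICM (46 reads) and 16.7 in the whole blastocyst (916 reads), 16.8-fold lower (12.5 to 23.1). It passed the filter through the whole blastocyst alone. The CoREST scaffold gene Rcor1 was 10.2-fold lower (7.98 to 13.1), with 71 reads in the ICM and 857 in the whole blastocyst. Tbl1x, an NCoR subunit, had 14.4 in the ICM and 105 in the whole blastocyst, 7.30-fold lower (6.48 to 8.25). The 2 higher genes, chosen for naming after their values were seen, were Rcor3, a paralog of Rcor1, at 3.65-fold (2.82 to 4.77), and Sap30, a Sin3 subunit, at 2.96-fold (2.30 to 3.84).

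Of 11 measured INO80, SRCAP and TIP60 subunits, 1 was higher and 3 lower (2 and none after centring), with a median of -0.55. Trrap, a scaffold of acetyltransferase complexes, was 3.01-fold higher (2.21 to 4.15), Uchl5, a deubiquitinase, 3.30-fold lower (2.84 to 3.84) and the zinc finger gene Yy1 2.47-fold lower (2.17 to 2.83). Of 9 ISWI partners, 1 was higher and 4 lower (1 and none after centring), with a median of -0.80. Baz2b had 11.6 in the ICM and 3.92 in the whole blastocyst, a ratio of 2.96 (2.56 to 3.44), and the lower genes included Baz1a at 7.90-fold (4.71 to 14.2) and Baz1b at 3.10-fold (2.55 to 3.79). Of 10 histone acetyltransferases, 1 was higher and 4 lower (1 each after centring), with a median of -0.90. Among them Crebbp was 4.15-fold (3.51 to 4.94), Kat2b 12.2-fold (6.82 to 24.1) and Myst4 (current symbol Kat6b) 2.89-fold (2.74 to 3.05) lower. These counts stand beside 8.96% higher and 44.0% lower of all genes as deposited, and 16.9% and 20.5% after centring. Among the lower genes of these lists, Sin3a, Brms1, Dmap1, Baz1a, Chrac1, Kat2b and Kat5 passed the filter through the whole blastocyst alone. Their direction is therefore built into the filter. Bcl7b and Mcrs1 passed through the ICM alone.

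In all, 19 of the 66 genes stayed under an RPKM of 1 in both libraries, and 6 of them (Smarca1, Hdac9, Hdac10, Hdac11, Mbd5 and Mbd3l1) had no read in either library. Mbd3l2 had 0 reads in the ICM and 7 in the whole blastocyst. Of the 47 that passed, 9 did so through the whole blastocyst alone (Arid1b, Arid3a, Arid3b, Hdac4, Hdac8, Ino80, Mbd4, Mta3 and Sirt3). Another 2, Arid4a and Chd6, passed through the ICM alone. For all of these genes a difference is built into the filter.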

How the data were processed

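RNA isolated with a PicoPure kit was amplified by NuGEN's Ovation system and sequenced as SOLiD fragment libraries, per the labels' protocols. For each gene the authors deposited whole-number read counts and RPKM values of both libraries. Per the submitters' processing notes, the genome build was mm9. The labels do not state the aligner, the annotation, the use of strand or the handling of multiply mapped reads. Read counts divided by RPKM give the relative library size used for the RPKM, which was 0.842 for the ICM over the whole blastocyst. The listed ICM reads summed to 0.445 of the listed whole-blastocyst reads.

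Genes, families and lists were chosen with earlier results of these data known. All 66 symbols matched RefSeq (GRCm38.p6), and 70 of 72 partner genes were found. Named were genes past 2-fold with 50 or more reads, the paralog pairs, the 2 most abundant of each family and up to 3 genes per partner list. Ratios carry exact conditional (Clopper-Pearson) 95% intervals and paralog balances exact conditional intervals of the odds ratio (Python 3.11.15, scipy 1.17.1, pandas 2.3.3). The code for the ratio intervals, and not that for the balances, was run on simulated Poisson counts. Such counts hold counting error alone, so the run cannot show how the intervals behave in amplified libraries. The pseudocount was 1 and the filter an RPKM of 1. Deposited reads divided by RPKM, per kilobase of longest coding transcript (GENCODE M21), varied 26.6-fold over 46 of these genes, so levels of different genes depend on the length used.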

Additional observations from a re-analysis of the deposited data

How the results depend on the processing

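The scaling between the libraries decided the direction of the median. It was -0.52 as deposited, and 0.26 in TPM, 0.35 scaled to listed gene reads and 0.34 after quantile normalization, while the median of all genes was -0.84, -0.11, -0.05 and 0.02. The filter acts on the scaled values, so 57, 49 and 48 of the genes passed it under those scalings in place of 47. Over the same 47 genes the medians were 0.29, 0.24 and 0.30.

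The 4 genes at least 2-fold higher became 13, 10 and 10 under those scalings, which is 22.8%, 20.4% and 20.8% of those that passed, near the 24.7%, 20.3% and 20.6% of all genes. With a pseudocount of 5 they became 2, or 4.26%, beside 2.46% of all genes. The 12 at least 2-fold lower became 4 of 48 after quantile normalization (8.33%, beside 21.1% of all genes) and 4 with a pseudocount of 5 (8.51%, beside 19.6%). They became 6 of 26 with a filter at an RPKM of 5 (23.1%, beside 48.7%) and 22 at a limit of 1.5-fold (46.8%, beside 59.2%). After centring, the 6 higher genes became 13 of 57 in TPM (22.8%, beside 23.7%). The 4 lower genes became 10 with a pseudocount of 0.1 (21.3%, beside 33.5%), 1 with a pseudocount of 5 (2.13%, beside 7.004%), 13 of 57 in TPM (22.8%, beside 32.3%) and 8 of 49 scaled to listed gene reads (16.3%, beside 25.7%). The other alternatives kept these counts within 1.5 times.

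Per kilobase of the longest coding transcript, chosen after seeing the data, the log2 level of Smarca4 over Smarca2 turned to -0.32 in the ICM and -0.78 in the whole blastocyst, and that of Chd1 over Chd2 to -0.011 and -1.13. No paired analysis was possible because each group has 1 library. Counts under 50 reads limit the precision of Hdac8 and Sirt3, and ICM counts that of Mta3 and Hdac4.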
